A study of Mus musculus with 18 samples.

Results

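Histone and DNA modifying enzymes write, or remove, chemical marks on chromatin, and their transcripts were followed here over the day in mouse liver. A gene was taken as a member if its symbol began with Kdm, Kmt, Kat, Hdac, Setd, Ehmt, Ezh, Dnmt or Tet followed by a number, or if it was Setdb1, Setdb2, Suv39h1, Suv39h2, Crebbp or Ep300. The rule used no measured value, and it found 64 genes among the 14451 listed. All 64 lay above the lowest value in every liver. Whole livers came from wild-type (WT) male mice of 8 to 9 weeks, kept in 12 h of light and 12 h of dark and killed at zeitgeber time (ZT) 1, 5, 9, 13, 17 or 21, where ZT counts the hours from lights on. By their labels the 6 groups differed only in ZT, and RNA from 3 mice was sequenced in each, giving 18 livers from 18 animals. All groups shared the genotype, the light cycle and the absence of any treatment in the labels, and no animal was followed through the day.

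Acetyltransferases (the Kat genes, Crebbp and Ep300) add acetyl groups to histone lysines, a mark of active genes, and deacetylases (Hdac) take them off. Methyltransferases (Kmt, most Setd, Ehmt, Suv39h, Ezh) and demethylases (Kdm) set methylation of lysines, which goes with active or silent genes depending on the lysine. DNA methyltransferases (Dnmt) methylate cytosine and TET dioxygenases (Tet) oxidize that methyl group. In the liver clock, several of these proteins are known partners of clock factors. HDAC3 is recruited with the corepressor NCoR by the REV-ERB receptors, CREBBP, EP300, KMT2A and KDM5A have been described with CLOCK and BMAL1, and EZH2 and KDM1A have also been linked to clock proteins.

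Each value is an RNA-seq read count estimated per gene, with 0.5 reads added and the liver's library size, as the authors adjusted it, set to 1000000, called the normalized count below. Depth ran from 10268168 to 23242842 estimated reads per liver, with a median of 12078875. The time labels were checked on 15 clock and clock output genes, and 17 of the 18 livers lay nearest to their own time point. The exception was replicate 3 of ZT5, which lay nearest to ZT9, so the main counts are also given without it. Hepatocyte markers dominated, as the label liver implies, with a summed normalized count of 6 genes between 72423 at ZT9 and 93346 at ZT17 (means of 3 livers). In whole tissue, fewer cells of a type and less RNA per cell cannot be told apart.

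Of the 64 enzyme genes, 29 (45.3%) had a 24 h rhythm, against 35.3% of all 14449 genes tested. A rhythm was called when a cosine of 24 h fitted by limma to log2(value + 1) passed a moderated F test at an adjusted p below 0.05, with Benjamini-Hochberg adjustment over all genes. The fitted peak fell in the light phase, at ZT0 to 12, in 23 of the 29 (79.3%), against 51.6% of the called genes of the whole table. Without replicate 3 of ZT5, 26 were called, where 32.6% of all genes were. Of those 26, 22 (84.6%) peaked in the light, against 51.0% of the called genes of the whole table. Counted over all genes tested, 18.2% were called with a peak in the light and 17.1% with a peak in the dark, and the corresponding shares of the 64 were 35.9% and 9.38%. Scaling each liver to the same plain total moved both splits toward the light, to 29 of 31 (93.5%) for the enzymes and 67.9% for all genes. That scaling shifted single livers by -0.107 to 0.0876 on the log2 scale.

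The genes called with a peak in the dark were Dnmt3b, Tet2, Hdac5, Setd8, Kat5 and Kat2a. With the same plain total, Tet2 (adjusted p = 0.0562), Hdac5 (0.0584) and Kat2a (0.148) lost the limma call and Kat5 kept it with a peak moved into the light, which left Dnmt3b and Setd8. In windows of 4 h, 11 (37.9%) peaked between ZT2 and ZT6, where 21.1% of all called genes did. Between ZT14 and ZT18 only Setd8 did (3.45%), where 19.1% of all called genes peaked.

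**Figure D1:**
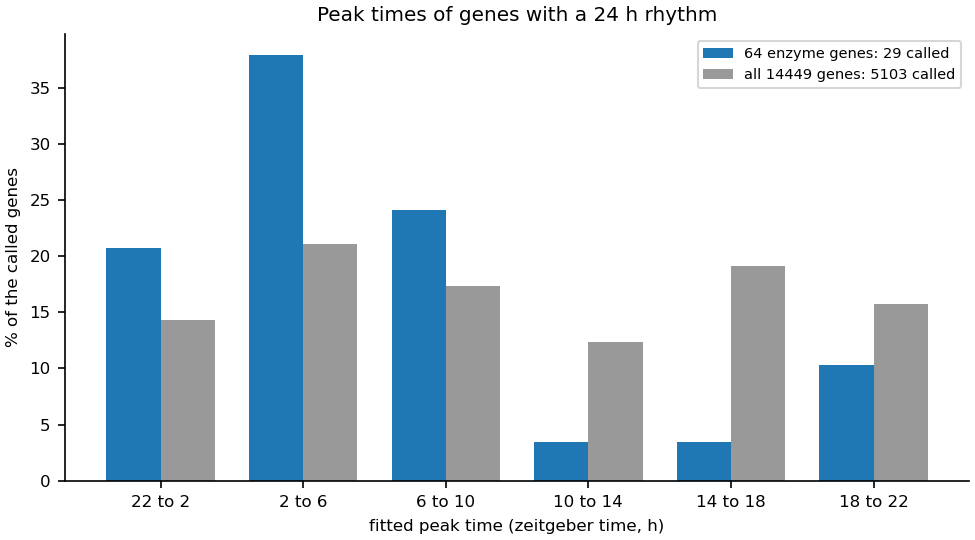
Bars give the share, in percent, of genes with a 24 h rhythm whose fitted peak fell in each window of 4 h (zeitgeber time, h), for the 29 enzyme genes (blue) and the 5103 genes of the whole table (grey). The enzymes had 37.9% between ZT2 and ZT6 and 3.45% between ZT14 and ZT18.

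The rhythms were small. Over all 64 genes the median fitted peak-to-trough difference was 0.28 on the log2 scale, against 0.32 over all genes tested. Among those called it was 0.53 for the enzymes and 0.55 for all genes. A difference of at least 1 on that scale, or a doubling, was fitted and called in 2 of the 64 (3.12%), Dnmt3b and Setd1b, against 4.57% of all genes. These differences are on the log2(value + 1) scale, which understates the change of genes with low values, and every fitted value given with an SE for a single gene is such a peak-to-trough difference.

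A rank test, JTK, called 14 of the 64 (21.9%), against 14.1% of all genes, and all 14 were also called by limma. Over the whole table, limma likewise called 2024 of the 2039 genes that JTK called. The 6 times differed in any way in 18 of the 64 (28.1%, limma F test, adjusted p below 0.05), against 26.3% of all genes. The mean of the dark phase (ZT13, ZT17 and ZT21) was lower than that of the light phase (ZT1, ZT5 and ZT9) in 21 genes (32.8%), against 12.3% of all genes, and higher in 3 (4.69%), against 11.9%. Those 3 were Dnmt3b, Setd8 and Kat2a. Without replicate 3 of ZT5 the counts were 11 by JTK (11.6% of all genes), 17 for any difference (23.3%), and 19 lower (11.1%) and 3 higher (1595 of all 14449 genes) in the dark. The JTK count was 6 (8.76% of all genes) without replicate 2 of ZT5, 8 (11.2%) without replicate 1 of ZT17 and 9 (11.5%) without replicate 3 of ZT17. No member had a 12 h component by limma at an adjusted p below 0.05, against 0.872% of all genes, while 8 (12.5%) had one at an unadjusted p below 0.05, against 12.6% of all genes.

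**Figure D2:**
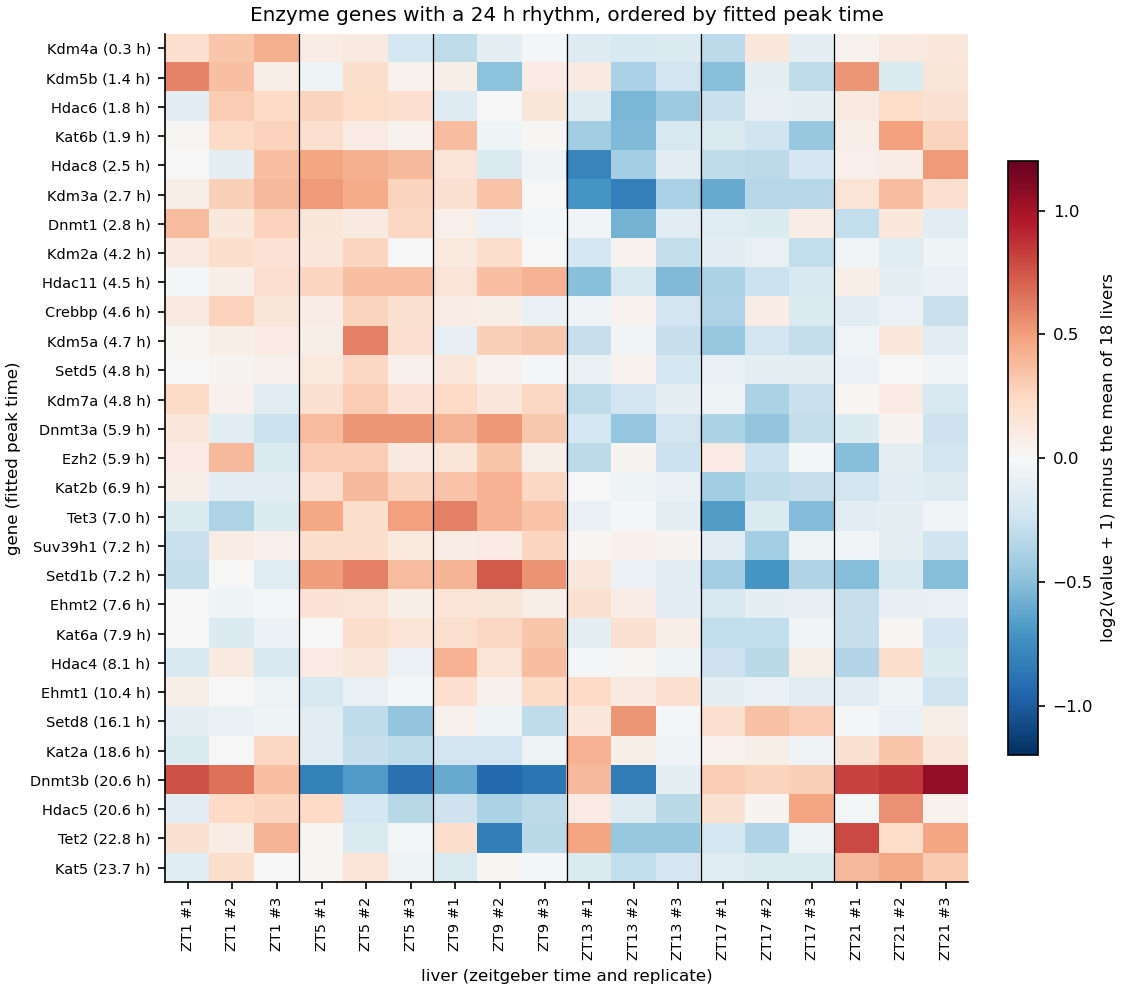
Each row is one of the 29 enzyme genes with a 24 h rhythm, ordered by fitted peak time (h, in brackets), and each column is a liver. Colour gives log2(value + 1) minus the gene's mean over the 18 livers, with red higher and blue lower. The rows of the 23 genes with a fitted peak in the light are red mostly between ZT1 and ZT9, though Kat6b was highest at ZT21. Those of Setd8, Kat2a, Dnmt3b, Hdac5, Tet2 and Kat5 are red mostly in the dark or near its end. Dnmt3b, Hdac5 and Tet2 also had means at ZT1 above their means over the 18 livers.

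All 5 DNA methylation enzymes were called with a 24 h rhythm, where 35.3% of all genes were, though the call of Tet2 was lost in most fits that left a liver out. Dnmt3b, which with Dnmt3a sets new DNA methylation, peaked late in the dark, and it had the largest rhythm of the 64 genes. Dnmt3a and Tet3 peaked in the light, and Tet2 near the end of the dark. Dnmt1, which copies methylation after DNA replication, peaked early in the light.

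Dnmt3b (chr2:153649450-153687730, plus strand, GRCm38) had normalized counts of 6.96, 6.41 and 5.02 at ZT1, 1.66, 1.92 and 1.52 at ZT5, 2.09, 1.44 and 1.55 at ZT9, 5.12, 1.61 and 3.34 at ZT13, 4.77, 4.63 and 4.72 at ZT17, and 7.22, 7.41 and 8.73 at ZT21. All 3 livers at ZT21 lay above the 15 others, and the 3 livers of ZT13 were spread widely. The mean fell from 7.79 ± 0.821 at ZT21 (SD, n = 3) to 1.69 ± 0.345 at ZT9. The fitted peak-to-trough was 1.77 ± 0.21 (SE) on the log2 scale with a peak at ZT20.6 (limma adjusted p = 1.87e-05, JTK adjusted p = 0.0148).

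Dnmt3a (chr12:3806007-3914443, plus strand) peaked in the light instead. Its normalized counts were 20.4, 16.8 and 15.4 at ZT1, 24.4, 27.2 and 27.2 at ZT5, 25, 27.1 and 23.5 at ZT9, 15.9, 13.2 and 15.8 at ZT13, 14, 13.1 and 15 at ZT17, and 16.5, 19 and 15.5 at ZT21. Each liver of ZT5 and ZT9 exceeded each liver of the other 4 times. The fitted peak-to-trough was 0.85 ± 0.13 (SE, log2) with a peak at ZT5.87 (limma adjusted p = 0.000294, JTK adjusted p = 0.0184). Over 0.799% of its exon length an antisense gene, Dnmt3aos, overlaps, whose reads cannot be told apart here.

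CLOCK and BMAL1 bind the E-box CACGTG, and promoters were searched for it to see whether this pair differs in it. Promoter sequences of RefSeq (GRCm38.p6), from 250 bases before to 50 after the start, were found for 52 of the 64 genes. CACGTG, which reads the same on both strands, stood in 5 of 38 promoters of 25 called genes (13.2%), in 2 of 37 promoters of 27 genes not called (5.41%), and in 2349 of all 32851 promoters (7.15%). The genes among those called were Dnmt3a, Hdac5, Kat5 and Ehmt2, and among those not called Kdm6a and Kdm4c. Ehmt2 had an E-box at both starts 1 and 2, so promoters of the same gene are counted more than once. The called genes Setd1b, Kdm5a, Kat6a and Kdm2a had no promoter sequence here. An internal start of Dnmt3a, start 3 of 3 listed (chr12:3891494-3891793, plus strand), had an E-box, in capitals, that begins 80 bases before the start. Starts 1 and 2 of Dnmt3a had none. The Dnmt3b promoter (chr2:153649199-153649498, plus strand) had none in this window either.
Dnmt3a, start 3: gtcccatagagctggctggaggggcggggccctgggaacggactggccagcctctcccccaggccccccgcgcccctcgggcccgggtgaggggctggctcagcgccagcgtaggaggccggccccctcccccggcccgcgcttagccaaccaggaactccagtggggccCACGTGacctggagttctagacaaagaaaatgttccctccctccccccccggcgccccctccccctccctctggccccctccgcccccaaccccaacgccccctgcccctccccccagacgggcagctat
Dnmt3b: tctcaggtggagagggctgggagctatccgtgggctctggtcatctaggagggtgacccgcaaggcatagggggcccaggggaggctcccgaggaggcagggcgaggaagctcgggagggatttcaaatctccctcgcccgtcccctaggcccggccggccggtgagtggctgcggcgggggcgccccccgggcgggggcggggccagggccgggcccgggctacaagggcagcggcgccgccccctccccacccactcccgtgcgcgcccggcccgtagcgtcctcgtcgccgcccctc
The D-box TTANGTAA, the site of DBP and its relatives, was in none of the 38 and none of the 37 promoters, and in 2.32% of all promoters on either strand. The ROR element TAGGTCA, searched on both strands, was in 0 of the 38, in 3 of the 37 (8.11%; Hdac9, Kdm4c and Kdm1a) and in 2.61% of all promoters. These matches describe letters in a window of 300 bases, and binding was not measured.

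Tet3 (chr6:83362373-83459084, minus strand) peaked close to Dnmt3a. Tet3 had normalized counts of 18.8, 16.1 and 18.9 at ZT1, 29.7, 24.8 and 30.3 at ZT5, 32.7, 28.7 and 27.2 at ZT9, 19.96, 20.9 and 19.5 at ZT13, 13, 18.8 and 14.5 at ZT17, and 19.3, 19.6 and 20.7 at ZT21. The ZT5 and ZT9 livers were all above those of ZT1, ZT13, ZT17 and ZT21. The fit gave 0.80 ± 0.14 (SE, log2) with a peak at ZT7.04 (limma adjusted p = 0.000904, JTK adjusted p = 0.0226).

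Tet2 (chr3:133463679-133545139, minus strand) was less regular. Its normalized counts were 19.1, 17.8 and 22.3 at ZT1, 17, 14.7 and 16.4 at ZT5, 19.5, 8.91 and 13.1 at ZT9, 23.4, 11.9 and 11.8 at ZT13, 14.3, 12.7 and 16 at ZT17, and 29.7, 19.6 and 23.5 at ZT21. The livers of ZT9 and ZT13 were spread so widely that single livers there reached the level of ZT1 and ZT21. The fit gave 0.69 ± 0.21 (SE) with a peak at ZT22.8, just inside the threshold (limma adjusted p = 0.0448), and JTK did not call it (adjusted p = 0.288). Of the 18 fits without 1 liver, 13 lost the call, with an adjusted p from 0.00513 without replicate 1 of ZT13 to 0.101 without replicate 1 of ZT21.

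Dnmt1 (chr9:20907209-20959888, minus strand) had means of 12.2 ± 1.15 at ZT1 and 8.37 ± 1.74 at ZT13 (SD, n = 3), and a fit of 0.43 ± 0.11 (SE) with a peak at ZT2.77 (limma adjusted p = 0.0201). JTK gave adjusted p = 0.0679. The summed normalized count of 5 markers of dividing cells lay between 6.08 at ZT21 and 8.98 at ZT5, and none of the 5 was called. Summed over the 3 Dnmt genes, the normalized count went from 26.7 ± 4.92 at ZT13 to 39.3 ± 1.83 at ZT5 (SD, n = 3).

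**Figure D3:**
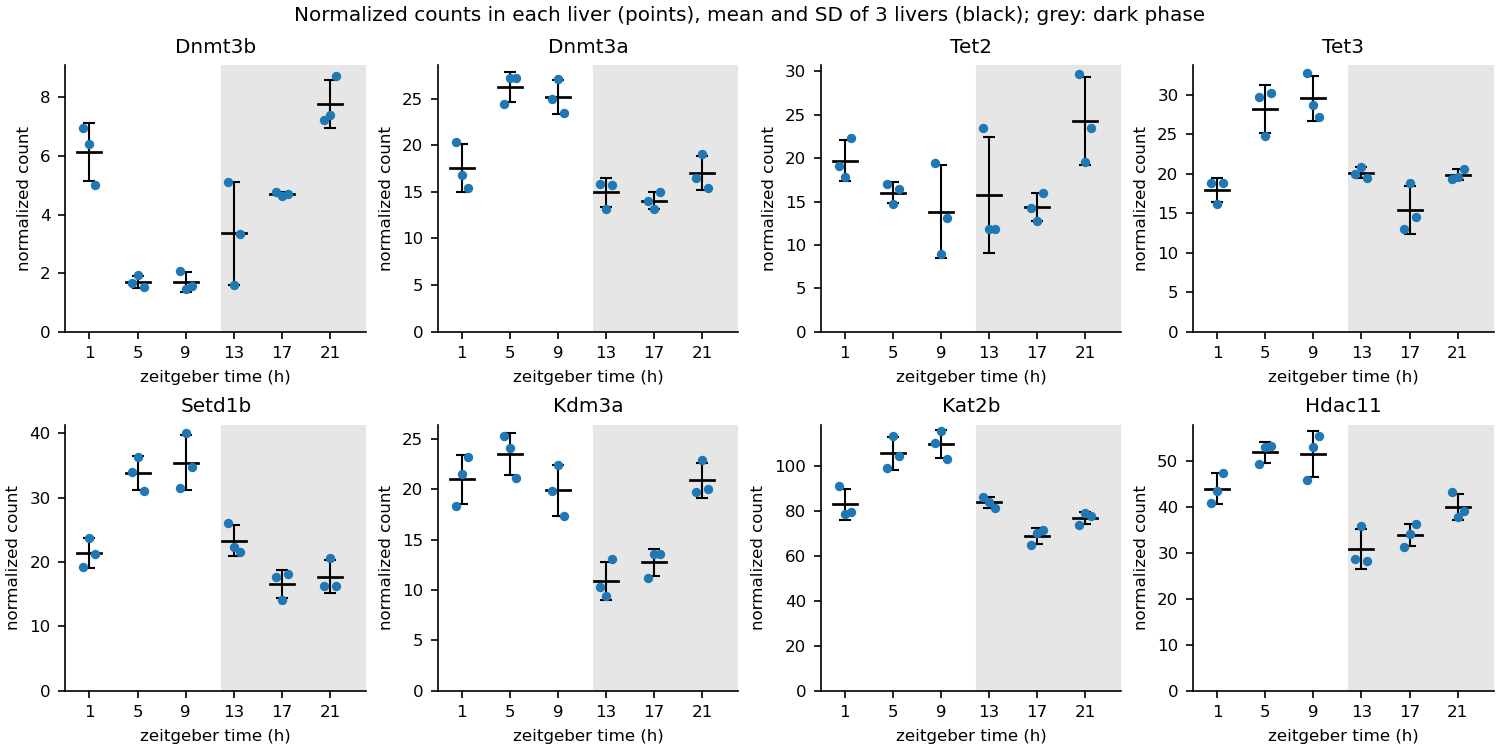
Normalized counts (vertical axis, from 0) of 8 genes against zeitgeber time (h), with a point for each liver, the mean and SD of 3 livers in black and the dark phase in grey. Dnmt3b was highest at ZT21 and lowest at ZT5 and ZT9, where Dnmt3a, Tet3, Setd1b, Kat2b and Hdac11 were high.

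Of the 9 acetyltransferase genes, 6 had a 24 h rhythm and 2 of these were also called by JTK, where 35.3% of all genes were called by limma and 14.1% by JTK. The fitted peak was in the light for Kat2b (PCAF), Kat6a, Kat6b and Crebbp, and in the dark for Kat2a (GCN5) and Kat5 (TIP60). The highest mean of Kat6b, however, was at ZT21, in the dark. Kat2b (chr17:53566861-53672720, plus strand) was the most abundant of the 64 genes per length of exon, at a normalized count of 18.1 per kb. Its normalized counts were 90.8, 78.5 and 79.4 at ZT1, 99.1, 113.3 and 104.3 at ZT5, 109.9, 115.6 and 103.1 at ZT9, 86, 83.7 and 81.4 at ZT13, 64.7, 70.0 and 71.4 at ZT17, and 73.8, 78.9 and 77.8 at ZT21. No liver of ZT5 or ZT9 was as low as any liver of another time. The fit gave 0.64 ± 0.08 (SE, log2) with a peak at ZT6.86 (limma adjusted p = 3.02e-05, JTK adjusted p = 0.0148).

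Kat2a, the close relative of Kat2b and the alternative catalytic subunit of the same complexes, ran the other way. The livers had Kat2a at 14.7, 16.7 and 19.9 at ZT1, 15.1, 13.6 and 13.3 at ZT5, 14.1, 14 and 15.9 at ZT9, 22.5, 17.5 and 16.2 at ZT13, 17.2, 17.5 and 16.1 at ZT17, and 19.1, 21.3 and 18.4 at ZT21. Each liver of ZT21 was above each liver of ZT5 and ZT9. The fit gave 0.38 ± 0.11 (SE) with a peak at ZT18.6 (limma adjusted p = 0.0357, JTK adjusted p = 0.0844), and without 1 liver at a time 7 of 18 fits lost the call, with the highest adjusted p, 0.0776, without replicate 3 of ZT5.

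Kat5, the catalytic subunit of the NuA4 complex, was high at a single time. For Kat5 the normalized counts were 7.83, 10.3 and 8.69 at ZT1, 8.81, 9.93 and 8.35 at ZT5, 7.66, 8.85 and 8.61 at ZT9, 7.62, 6.93 and 7.46 at ZT13, 7.82, 7.63 and 7.61 at ZT17, and 11.8, 12.3 and 11.1 at ZT21. The 3 livers of ZT21 exceeded all 15 others. A cosine describes such a profile poorly, and the fit gave 0.40 ± 0.12 (SE) with a peak at ZT23.7 (limma adjusted p = 0.0317, JTK adjusted p = 0.0679). The call was lost in 6 of the 18 fits without 1 liver, the adjusted p reaching 0.067 without replicate 2 of ZT13. Of its exon length, 12.1% overlaps Rnaseh2c on the other strand. Its promoter 2 (chr19:5610045-5610344, minus strand) had an E-box, in capitals, from 186 bases before the start.
Kat5, start 2: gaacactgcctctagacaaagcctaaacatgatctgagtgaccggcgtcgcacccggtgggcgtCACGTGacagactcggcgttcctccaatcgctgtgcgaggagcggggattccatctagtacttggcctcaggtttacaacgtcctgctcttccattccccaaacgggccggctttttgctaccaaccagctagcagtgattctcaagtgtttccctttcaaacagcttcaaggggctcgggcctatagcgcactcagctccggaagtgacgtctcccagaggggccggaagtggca

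Among the remaining acetyltransferases, Kat6b, of the MOZ and MORF family, had means of 10.5 ± 1.42 at ZT13 and 17.2 ± 2.67 at ZT21 (SD, n = 3), and its fit gave 0.57 ± 0.14 (SE) with a peak at ZT1.88 (limma adjusted p = 0.011). JTK did not call it (adjusted p = 0.158). Kat6a of the same family peaked at ZT7.94 with 0.45 ± 0.09 (SE) (limma adjusted p = 0.00246). Crebbp, a coactivator with broad targets, fell from 21.4 ± 1.37 at ZT5 to 16.7 ± 1.22 at ZT21, with 0.37 ± 0.09 (SE) and a peak at ZT4.64 (limma adjusted p = 0.0152, JTK adjusted p = 0.0431).

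Ep300, the closest relative of Crebbp, missed the threshold by limma (adjusted p = 0.0539), with 0.27 ± 0.09 (SE) and means of 27.5 ± 2.78 at ZT21 and 34.2 ± 3.1 at ZT9. It passed in 4 of the 18 fits without 1 liver, with the lowest adjusted p, 0.0362, without replicate 1 of ZT1. Ep300 also passed in 4 of the limma fits with another pseudocount, filter, scaling or prior variance, with the lowest adjusted p at 0.0138. Kat7 (HBO1) was also just outside, at 0.25 ± 0.09 (SE) (limma adjusted p = 0.0771). Summed over the 9 genes, the normalized count was 269.8 ± 10.6 at ZT9 and 208.4 ± 6.06 at ZT17 (SD, n = 3).

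Of the 11 deacetylases 5 had a 24 h rhythm, and 3 of them were also called by JTK, where 35.3% of all genes were called by limma and 14.1% by JTK. They were 1 of 4 in class I (Hdac8), 2 of 4 in class IIa (Hdac4 and Hdac5), 1 of 2 in class IIb (Hdac6) and the only class IV enzyme, Hdac11. Hdac3, the catalytic partner of NCoR, was not called.

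Hdac11 (chr6:91156665-91174692, plus strand), known mainly as a remover of long fatty acyl groups, stood after Kat2b and Setd3 per length of exon, at 10.9 per kb. The normalized counts of Hdac11 were 40.8, 43.6 and 47.5 at ZT1, 49.3, 53.2 and 53.3 at ZT5, 45.9, 53.1 and 55.5 at ZT9, 28.7, 35.9 and 28.1 at ZT13, 31.4, 34.2 and 36.3 at ZT17, and 43.3, 37.9 and 39 at ZT21. All livers of ZT1, ZT5 and ZT9 were above all livers of ZT13 and ZT17. The fit gave 0.69 ± 0.12 (SE, log2) with a peak at ZT4.53 (limma adjusted p = 0.000828, JTK adjusted p = 0.0278). Genes on the other strand overlap 17.9% of its exon length.

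Hdac8, on the X chromosome, was low but varied. Hdac8 had normalized counts of 3.08, 2.77 and 4.25 at ZT1, 4.66, 4.48 and 4.35 at ZT5, 3.53, 2.66 and 2.97 at ZT9, 1.35, 2.09 and 2.74 at ZT13, 2.3, 2.29 and 2.54 at ZT17, and 3.27, 3.36 and 4.81 at ZT21. Each liver of ZT5 lay above each liver of ZT13 and ZT17. The fit gave 0.72 ± 0.16 (SE) with a peak at ZT2.47 (limma adjusted p = 0.00562, JTK adjusted p = 0.0349). Hdac6, known as the deacetylase of tubulin in the cytoplasm, had means of 18.6 ± 0.465 at ZT5 and 11.9 ± 1.86 at ZT13, with 0.55 ± 0.11 (SE) and a peak at ZT1.84 (limma adjusted p = 0.00285, JTK adjusted p = 0.0431).

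The class IIa enzymes Hdac4 and Hdac5, which shuttle between cytoplasm and nucleus under the control of phosphorylation, peaked at opposite times. Hdac5 (chr11:102194432-102230166, minus strand) had normalized counts of 39, 50.7 and 51.4 at ZT1, 50.9, 37 and 33.9 at ZT5, 36.1, 32.8 and 34.2 at ZT9, 46.2, 38.4 and 34 at ZT13, 49, 44.1 and 59.8 at ZT17, and 42.4, 63.3 and 44.3 at ZT21. Its 3 livers at ZT17 were above the 3 at ZT9, and those of ZT5 overlapped both. The fit gave 0.53 ± 0.14 (SE) with a peak at ZT20.6 (limma adjusted p = 0.0199, JTK adjusted p = 0.288), and the adjusted p was 0.0545 without replicate 2 of ZT21. Hdac4 had means of 10.2 ± 1.03 at ZT9 and 7.04 ± 1.2 at ZT17, with 0.39 ± 0.12 (SE) and a peak at ZT8.15, just inside the threshold (limma adjusted p = 0.044, JTK adjusted p = 0.417). An antisense gene overlaps 22.4% of the exon length of Hdac4, and 13 of the 18 fits without 1 liver lost the call, with the highest adjusted p, 0.108, without replicate 1 of ZT9. The Hdac5 promoter (chr11:102230123-102230422, minus strand) had an E-box, in capitals, that begins at base 4, the start being base 1.
Hdac5: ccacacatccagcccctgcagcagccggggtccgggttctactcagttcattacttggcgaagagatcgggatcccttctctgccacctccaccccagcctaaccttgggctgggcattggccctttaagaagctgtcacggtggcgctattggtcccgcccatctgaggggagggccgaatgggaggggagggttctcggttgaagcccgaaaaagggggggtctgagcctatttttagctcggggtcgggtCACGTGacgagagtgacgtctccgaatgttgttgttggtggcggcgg

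Hdac3 had normalized counts of 29.9, 30.4 and 30.2 at ZT1, 26.6, 28.5 and 31.6 at ZT5, 27.5, 29.8 and 29.4 at ZT9, 27.9, 29.7 and 26.9 at ZT13, 28, 24.6 and 27.9 at ZT17, and 32.2, 26.9 and 27 at ZT21. All 18 livers lay between 24.6 and 32.2. The fit gave 0.12 ± 0.07 (SE) (limma adjusted p = 0.415, JTK adjusted p = 1). The 4 class I genes together had a summed normalized count between 74.3 ± 4.30 at ZT17 and 79.5 ± 5.60 at ZT1 (SD, n = 3). Hdac9, of class IIa, was the lowest of the 64 genes, with normalized counts from 0.451 to 1.76 over the 18 livers, and had no call (limma adjusted p = 0.578).

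**Figure D4:**
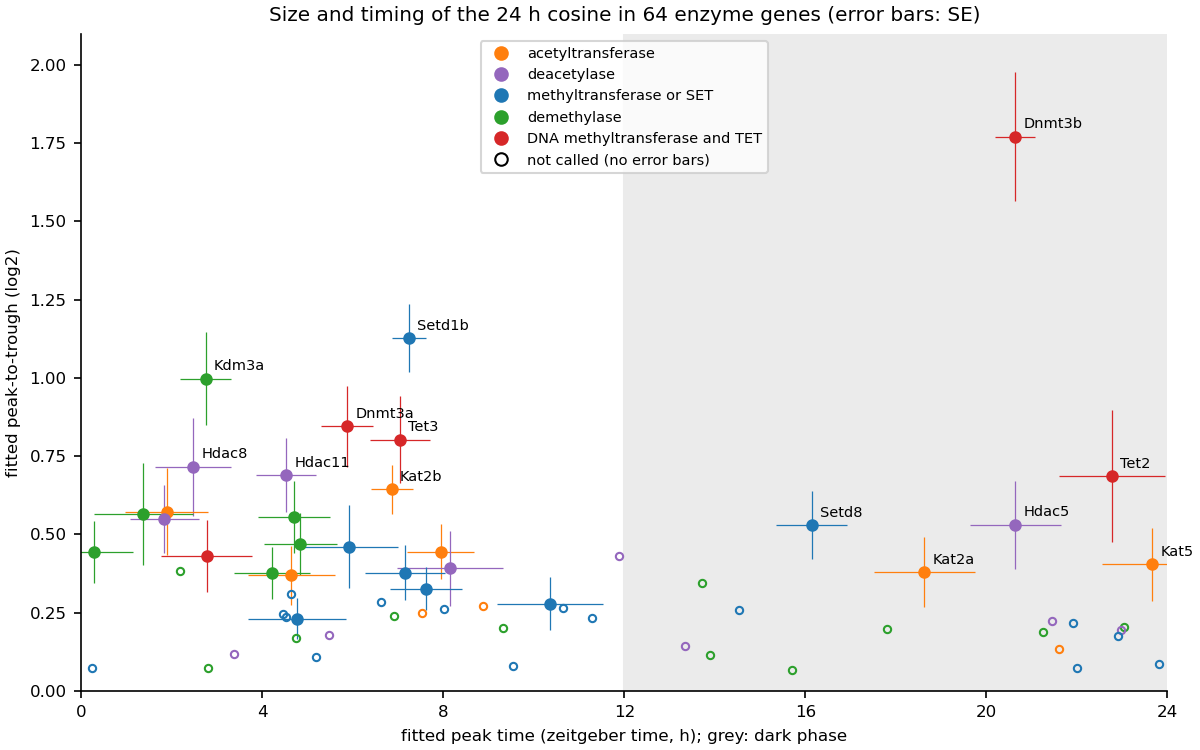
Fitted peak-to-trough difference (log2, vertical) against fitted peak time (zeitgeber time, h, horizontal) for the 64 genes, coloured by role. Filled points with SE bars are the 29 called genes and open points those not called, and grey marks the dark phase. The filled points crowd between ZT0 and ZT10, and Dnmt3b at 1.77 and Setd1b at 1.13 stand highest.

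Of the 22 methyltransferases and other SET domain genes, 7 had a 24 h rhythm, 6 with a peak in the light, a share near the 35.3% of all genes that were called. The genes were grouped by the usual substrate of their family, with every Kmt2 gene placed under H3K4 whatever its own activity. In these groups 1 of 8 for H3K4, 3 of 6 for H3K9, 1 of 2 for H3K27, 0 of 1 for H3K36, 1 of 1 for H4K20 and 1 of 4 other SET domain genes were called. Setd1b was the one called in the H3K4 group.

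Setd1b (chr5:123142193-123168629, plus strand), the catalytic subunit of a COMPASS complex that trimethylates H3K4 at promoters, had the lowest adjusted p of the 64 genes. Setd1b had normalized counts of 19.2, 23.8 and 21.3 at ZT1, 33.9, 36.4 and 31.1 at ZT5, 31.6, 40.1 and 34.8 at ZT9, 26.1, 22.4 and 21.5 at ZT13, 17.6, 14.1 and 18.1 at ZT17, and 16.2, 20.7 and 16.3 at ZT21. Every liver of ZT5 and ZT9 was above every liver of the other times. The fit gave 1.13 ± 0.11 (SE, log2) with a peak at ZT7.24 (limma adjusted p = 2.75e-06, JTK adjusted p = 0.00863). Its paralog Setd1a was not called, with 0.09 ± 0.16 (SE) and a mean of 19.4 ± 5.4 at ZT17 and 24.2 ± 5.2 at ZT21, and 52.3% of its exon length overlaps other genes. Kmt2a (MLL1) was not called either, with means between 22 ± 4.96 at ZT17 and 25.2 ± 3.21 at ZT13 and 0.11 ± 0.12 (SE) (limma adjusted p = 0.73).

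Setd8 (named Kmt5a in newer annotation), which monomethylates H4K20, peaked in the dark. The normalized counts of Setd8 were 27.9, 28.5 and 29 at ZT1, 27.5, 24.2 and 21.5 at ZT5, 31.4, 29.1 and 24.2 at ZT9, 33, 44.1 and 29.6 at ZT13, 34.7, 38.8 and 37.2 at ZT17, and 29.7, 28.5 and 31.7 at ZT21. The 3 livers of ZT17 were above all livers of ZT1, ZT5, ZT9 and ZT21. The fit gave 0.53 ± 0.11 (SE) with a peak at ZT16.1 (limma adjusted p = 0.00366, JTK adjusted p = 0.0184), and the call held in all 18 fits without 1 liver.

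Of the H3K9 enzymes, 3 of 6 were called, Ehmt2, Ehmt1 and Suv39h1. Ehmt2 (G9a), which with Ehmt1 (GLP) forms the enzyme for mono- and dimethylation, stood after Kat2b, Setd3 and Hdac11 per length of exon, at 9.41 per kb, and fell from 56.6 ± 2.01 at ZT5 to 46.2 ± 3.27 at ZT21, with 0.33 ± 0.07 (SE) and a peak at ZT7.62 (limma adjusted p = 0.00429). Ehmt1 gave 0.28 ± 0.09 (SE) with a peak at ZT10.4 (limma adjusted p = 0.0435), and 12 of the 18 fits without 1 liver lost its call, with the highest adjusted p, 0.094, without replicate 3 of ZT21. Suv39h1, a trimethylase of heterochromatin, had means of 7.09 ± 0.28 at ZT5 and 5.25 ± 0.785 at ZT17 and a fit of 0.38 ± 0.09 (SE) with a peak at ZT7.16 (limma adjusted p = 0.00823, JTK adjusted p = 0.0226), with 14.5% of its exon length overlapped by another gene. Suv39h2 was the second lowest gene of the 64, with normalized counts from 0.726 to 2.11 over the livers, and was not called (limma adjusted p = 0.651). Ehmt2 promoter 1 (chr17:34898224-34898523, plus strand) had E-boxes, in capitals, from 232 and 26 bases before the start.
Ehmt2, start 1: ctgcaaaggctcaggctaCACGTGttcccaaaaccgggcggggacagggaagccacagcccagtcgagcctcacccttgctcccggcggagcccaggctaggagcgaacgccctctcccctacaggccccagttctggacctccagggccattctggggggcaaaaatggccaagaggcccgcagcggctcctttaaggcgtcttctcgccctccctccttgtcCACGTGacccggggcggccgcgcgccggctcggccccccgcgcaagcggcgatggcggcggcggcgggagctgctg

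Ezh2, the catalytic subunit of the Polycomb complex PRC2, was low and peaked in the light, with normalized counts of 4.53, 5.77 and 3.58 at ZT1, 5.39, 5.36 and 4.6 at ZT5, 4.73, 5.54 and 4.45 at ZT9, 3.16, 4.29 and 3.34 at ZT13, 4.56, 3.33 and 4.11 at ZT17, and 2.62, 3.77 and 3.45 at ZT21. Livers of ZT5 and ZT21 did not overlap. The fit gave 0.46 ± 0.13 (SE) with a peak at ZT5.9 (limma adjusted p = 0.0307, JTK adjusted p = 0.288), and 4 of the 18 fits without 1 liver lost the call, with the highest adjusted p, 0.0636, without replicate 2 of ZT5. Setd5, the only called gene outside the naming rule and named after its values were seen, had 0.23 ± 0.07 (SE) with a peak at ZT4.77 (limma adjusted p = 0.0306, JTK adjusted p = 0.0226), and its adjusted p was 0.0886 without replicate 2 of ZT5. Setd3, which methylates actin on histidine, had a flat profile with means between 76.1 ± 1.54 at ZT1 and 83.1 ± 3.14 at ZT9 (limma adjusted p = 0.609).

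Of the 17 demethylases, 6 had a 24 h rhythm, all JmjC enzymes with a peak between ZT0 and ZT5. The 35.3% of all genes that were called is near this share. They were Kdm3a, Kdm5b, Kdm5a, Kdm7a, Kdm4a and Kdm2a, and 2 of them, Kdm3a and Kdm5a, were also called by JTK. Neither amine oxidase was called. Kdm3a (chr6:71588972-71632990, minus strand), which removes mono- and dimethylation of H3K9, had the largest rhythm after Dnmt3b and Setd1b. In the livers Kdm3a measured 18.4, 21.5 and 23.2 at ZT1, 25.3, 24.1 and 21.2 at ZT5, 19.9, 22.4 and 17.4 at ZT9, 10.3, 9.46 and 13.1 at ZT13, 11.1, 13.5 and 13.5 at ZT17, and 19.7, 22.9 and 20.1 at ZT21. All livers of ZT13 and ZT17 were below all livers of the other 4 times. The fit gave 1.00 ± 0.15 (SE, log2) with a peak at ZT2.75 (limma adjusted p = 0.000232, JTK adjusted p = 0.0349).

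Kdm5a and Kdm5b both remove H3K4 methylation. Kdm5a had means of 36.6 ± 7.44 at ZT5 and 23.3 ± 1.97 at ZT17 and a fit of 0.56 ± 0.12 (SE) with a peak at ZT4.7 (limma adjusted p = 0.0039, JTK adjusted p = 0.0431). Kdm5b had normalized counts of 42, 35.7 and 29.1 at ZT1, 26.5, 32 and 28.3 at ZT5, 28.8, 19.2 and 29.4 at ZT9, 29.7, 20.7 and 23.2 at ZT13, 19, 25.4 and 22.1 at ZT17, and 40.1, 24.2 and 30.6 at ZT21. Its livers at ZT1 and ZT17 did not overlap, and those of ZT21 were spread from 24.2 to 40.1. The fit gave 0.56 ± 0.16 (SE) with a peak at ZT1.37 (limma adjusted p = 0.0316, JTK adjusted p = 0.499), and 3 of the 18 fits without 1 liver lost the call, the adjusted p reaching 0.0831 without replicate 1 of ZT1.

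Kdm4a, which acts on H3K9 and H3K36, peaked at ZT0.285 with 0.44 ± 0.10 (SE) and means of 31.7 ± 2.54 at ZT1 and 22.3 ± 0.214 at ZT13 (limma adjusted p = 0.00665). Kdm7a, for H3K9 and H3K27 dimethylation, peaked at ZT4.84 with 0.47 ± 0.10 (SE) (limma adjusted p = 0.00435), and Kdm2a, for H3K36, at ZT4.21 with 0.38 ± 0.08 (SE) (limma adjusted p = 0.00548). JTK called none of the 3, with adjusted p from 0.0537 to 0.104. Kdm3b was just outside the limma threshold (adjusted p = 0.0507), at 0.38 ± 0.12 (SE). It passed in 5 of the 18 fits without 1 liver, with the lowest adjusted p, 0.0282, without replicate 1 of ZT9. Kdm3b also passed in 5 of the limma fits with another pseudocount, filter, scaling or prior variance, with the lowest adjusted p at 0.0215. An antisense gene overlaps 24.6% of its exon length.

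Kdm1a (LSD1) stayed within means of 13.2 ± 1.24 at ZT21 and 14.6 ± 0.253 at ZT1, with 0.07 ± 0.08 (SE) (limma adjusted p = 0.717). Kdm5c, an X-linked relative of Kdm5a, stood next after Ehmt2 per length of exon at 7.83 per kb, with 0.07 ± 0.08 (SE) (limma adjusted p = 0.792), and Kdm8 was the lowest by normalized count after Hdac9 and Suv39h2, with normalized counts from 2.1 to 3.96 (limma adjusted p = 0.729). Summed over the 17 genes, the normalized count went from 358.2 ± 7.47 at ZT17 to 425.4 ± 1.81 at ZT1 (SD, n = 3). The 35 genes not called had fitted differences between 0.07 and 0.43 on the log2 scale.

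In pairs of close relatives, the ratio of the normalized counts changed over the day in 10 of 21 pairs, of which 8 kept the call in every alternative tried. The log2 ratio was taken within each liver after 1 was added to each normalized count. It was fitted with a 24 h cosine and tested by 100000 permutations of the livers over the times. The p is the share of permutations that a cosine fitted at least as well, with Benjamini-Hochberg adjustment over the 21 pairs. This comparison was chosen after the data were seen, and several pairs hold genes named above, so it describes those same values. The share of pairs called was not computed for pairs of other genes, and a rhythm in either gene of a pair can change the ratio. A ratio within a liver does not depend on the scaling of that liver, apart from the added pseudocount. The pseudocount can also understate the change of a ratio that holds a low gene, such as Dnmt3b.

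The largest change was in Dnmt3a to Dnmt3b. The mean log2 ratio was 1.03 ± 0.25 at ZT21 and 3.34 ± 0.13 at ZT5 (SD, n = 3), and the fit gave 2.47 ± 0.27 (SE) with a peak at ZT7.76 (permutation p = 1e-05, the smallest these permutations can give, adjusted p = 0.00021). Tet2 to Tet3 went from -1.10 ± 0.44 at ZT9 to 0.26 ± 0.3 at ZT21, with 1.31 ± 0.23 (SE) (permutation test, adjusted p = 0.00231). The livers of ZT5, at -0.78 ± 0.065, were close together, and those of ZT13 were the most spread of this pair, at -0.41 ± 0.55.

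Setd1a to Setd1b went from -0.77 ± 0.21 at ZT5 to 0.41 ± 0.5 at ZT21, with 1.16 ± 0.23 (SE) (permutation test, adjusted p = 0.0034). Kat2a to Kat2b went from -2.83 ± 0.17 at ZT5 to -1.92 ± 0.093 at ZT21, with 1.02 ± 0.14 (SE) (permutation test, adjusted p = 0.00049). For Hdac4 to Hdac5 the ratio ran from -2.69 ± 0.037 at ZT17 to -1.66 ± 0.079 at ZT9, with 0.92 ± 0.13 (SE) (permutation test, adjusted p = 0.00049).

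The other pairs with a call were smaller. Kat6a to Kat6b gave 0.73 ± 0.15 (SE), Kdm2a to Kdm2b 0.68 ± 0.18 (SE), Kdm3a to Kdm3b 0.62 ± 0.20 (SE), Crebbp to Ep300 0.35 ± 0.09 (SE) and Hdac1 to Hdac2 0.32 ± 0.09 (SE), with permutation adjusted p between 0.00563 and 0.041. Kdm3a to Kdm3b lost the call in 10 of 20 alternatives, with the highest adjusted p, 0.1, without replicate 1 of ZT5, and Hdac1 to Hdac2 in 3, without replicate 3 of ZT1, replicate 1 of ZT13 or replicate 1 of ZT21. Crebbp to Ep300 peaked at ZT1.7, with a mean of -0.46 ± 0.26 at ZT1 and -0.80 ± 0.054 at ZT9. The 11 pairs without a call include Kdm5a to Kdm5b, Ezh1 to Ezh2, Kmt2a to Kmt2b and Ehmt1 to Ehmt2.

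**Figure D5:**
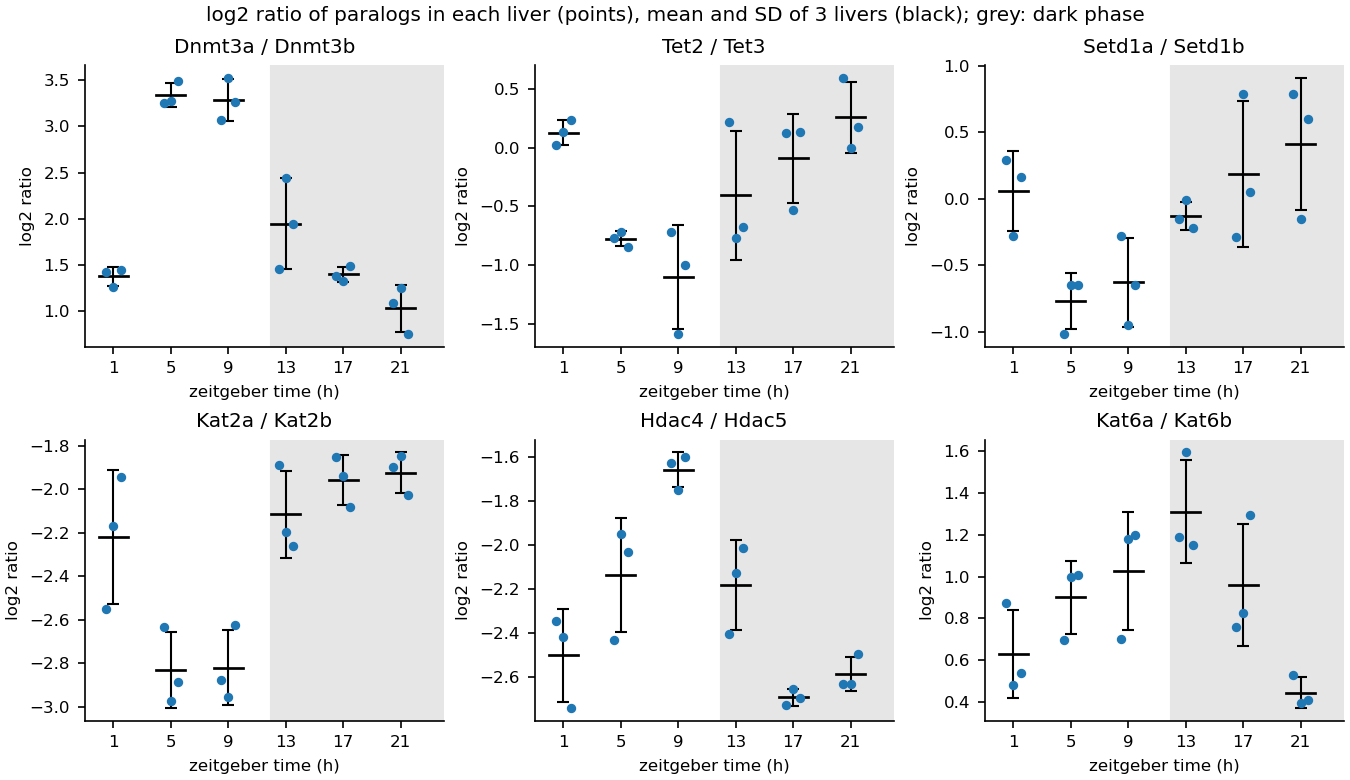
log2 ratio of 6 pairs of relatives (vertical) against zeitgeber time (h), with a point for each liver, the mean and SD of 3 livers in black and the dark phase in grey. Dnmt3a to Dnmt3b was above 3 at ZT5 and ZT9 and near 1 at ZT21, and Kat2a to Kat2b and Tet2 to Tet3 were lowest at ZT5 and ZT9.

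Other chromatin genes that the rule leaves out, subunits of the same complexes and further enzymes, were called about as often as all genes. Of 67 symbols listed, 63 were measured, and Nsd2 and Nsd3 among the others are newer symbols of Whsc1 and Whsc1l1, which were measured. Of the 63, 23 (36.5%) had a 24 h rhythm, against 35.3% of all genes. Of these 13 peaked in the light and 10 in the dark, and 11 were also called by JTK. The 3 largest peaked in the dark. Jmjd6, a JmjC oxygenase, peaked at ZT15.0 with 0.79 ± 0.15 (SE), Prmt3, an arginine methyltransferase, at ZT17.0 with 0.70 ± 0.14 (SE), and Smyd2, a lysine methyltransferase, at ZT17.1 with 0.70 ± 0.10 (SE) (limma adjusted p between 0.000104 and 0.00262).

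The summed markers of some other liver cells had different means at different times. Limma called 35.3% of all genes, to be set beside the counts of markers called. The summed normalized count of 5 Kupffer cell markers was 194.7 ± 31 at ZT5, 200.1 ± 20.7 at ZT9 and 118.0 ± 26.7 at ZT21 (SD, n = 3), and 2 of the 5 were called by limma. Its livers were spread widely at ZT1 (149 ± 53.4) and ZT17 (144 ± 57.3). That of 5 sinusoidal endothelial markers was 167.6 ± 20.3 at ZT5 and 111.4 ± 25.7 at ZT21, with 2 of 5 called. Neither list was near 0 at any time. The sum of 4 bile duct markers was lowest at ZT5 (6.36) and highest at ZT1 (13.1), with 3 of 4 called, and that of mitochondrially encoded genes was lowest at ZT9 and highest at ZT17, with 13 of 33 called. No stellate cell, lymphocyte or blood marker was called, among 5, 3 and 3 measured, with summed normalized counts between 151.0 and 177.6, 1.74 and 3.71, and 142.9 and 224.4. The part of these cells in the rhythms of the enzyme genes was not tested.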

How the data were processed

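RNA was measured in 18 whole livers by poly-A RNA sequencing (NEBNext Ultra, HiSeq2500). Per the submitters' processing notes and the methods, the authors called bases with CASAVA 1.8.2, removed adapters with cutadapt, estimated reads per Ensembl gene (gene-build 84, GRCm38) with RSEM 1.2.20 and normalized them with limma. What the authors deposited is a linear signal per gene and liver, in which 0.5 was added to each estimated count and the library size, as limma adjusts it, was set to 1000000 (worked out from the values). With an offset of 0.5 reads behind the lowest value of each liver, 99.98% of values were multiples of 0.01 reads and 39.1% to 47.9% per liver were whole reads (within 0.005), so no count test was run. Counting error grows as values near the lowest (0.0208 to 0.0478), and whether counting used strand is not given in the sources used here, so overlapping genes on opposite strands share their reads. Replicates are separate mice, 3 sequenced of 5 per group, and their numbers only name them. The authors picked these 3 for the best RNA quality. Genes never above that lowest value, 2 in all, were left out.

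Over 14449 genes, log2(value + 1) was fitted by limma 3.58.1 (R 4.3.3) with a cosine and sine of 24 h, with a second pair of 12 h, and with the 6 times as levels (any difference, and dark minus light). JTK was written in Python 3.11.15 (numpy 2.4.6, scipy 1.17.1, pandas 2.3.3) with periods of 20, 24 and 28 h. It used the null of 6 ordered groups of 3 livers and Bonferroni adjustment over 18 orders. A cosine order gives some times equal rank, so this null is not exact for it. In the simulation below, 0.961% of flat genes had an unadjusted JTK p below 0.05, so JTK was strict here. Calls needed an adjusted p below 0.05 (Benjamini-Hochberg over all genes). Coordinates, overlaps and exon lengths are from GENCODE M21 (GRCm38). On simulated data from these genes, limma recovered 44 of 100 rhythms of 0.5 (log2) and 91 of 100 of 1, with 4 of 14249 flat genes called, and JTK recovered 13 and 46, with 1 flat gene. Those data had normal noise and only 200 rhythmic genes among 14449, where limma called 5103 in the livers. Benjamini-Hochberg adjustment depends on how many genes are called. These counts therefore do not give the recovery or the share of false calls in the livers. The enzyme genes, the lists and the tests were chosen with earlier results of these data known. Named genes are the 25 largest rhythms among those called, any with a 12 h call, the 3 highest and 3 lowest, the 3 nearest the threshold on each side, those of the 10 largest where limma and JTK differ, 8 known clock partners and 3 of the further chromatin genes. Alternatives were other pseudocounts, a filter on low values, 2 other scalings, a prior variance following the mean, a stricter threshold, a 24 h pair beside the 12 h pair, JTK in place of limma, and leaving out each liver.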

Additional observations from a re-analysis of the deposited data

How the results depend on the processing

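No paired analysis was possible because each mouse gave 1 liver and the replicate numbers only name the livers of a group. A peak-to-trough difference has no sign to reverse, but 2 called peaks near lights on changed phase, that of Kat5 from ZT23.7 to ZT0.563 with the same plain total and that of Kdm4a from ZT0.285 to ZT23.7 without replicate 1 of ZT17. The 29 genes with a 24 h rhythm became 14 with JTK in place of limma, and at a threshold of 0.01 they became 17 (19.8% of all genes), with 15 of them peaking in the light (1446 of all 14449 genes), 11 genes differing between the times (13.3%), 10 lower in the dark (6.14%) and 1 by JTK (2.18%). Leaving out 1 liver at a time gave 24 to 28 genes with a 24 h rhythm, 20 to 24 with a peak in the light, 14 to 20 with any difference, 15 to 20 lower and 3 to 4 higher in the dark, 6 to 14 by JTK, and 0 to 1 with a 12 h term. The whole table lost calls in these fits too. Of all 14449 genes, 4573 to 5088 had a 24 h rhythm, against 5103 with every liver. Those with a peak in the light were 2347 to 2625, against 2634. For the other counts no range over all genes is given. Without replicate 3 of ZT5, genes with any difference fell from 3802 to 3365 of all genes, and those called by JTK from 2039 to 1673. Those lower in the dark fell from 1780 to 1602, and those higher from 1724 to 1595. The 12 h term was called in 1 gene with a pseudocount of 5 (Dnmt3a) and in 1 without replicate 2 of ZT13 (Dnmt3b). The same plain total was the scaling that changed most single calls, with 5 gained (Kdm3b, Kmt2c, Ep300, Kat7 and Setd2, adjusted p between 0.0138 and 0.0278) and 3 lost. The light peak count and the ratios of relatives were chosen after the data were seen. Of the 10 ratios called, 8 kept the call in all 20 alternatives tried (other pseudocounts and each liver left out), Kdm3a to Kdm3b lost it in 10 and Hdac1 to Hdac2 in 3. The cause of these differences was not tested. Depth limits the lowest genes, such as Hdac9, where 5 estimated reads stood behind the lowest value.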
